A study of Homo sapiens with 12 samples.

Results

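The genes described here encode the cell surface receptors for tumor necrosis factor (TNF) and the first cytoplasmic proteins these receptors recruit: the receptors *TNFRSF1A* and *TNFRSF1B*, the adaptor *TRADD*, the kinase *RIPK1*, the TRAF genes *TRAF1*, *TRAF2* and *TRAF3*, and the cIAP ubiquitin ligases *BIRC2* and *BIRC3*. They were chosen by name, with earlier results of these data known. All 9 were found among the 58288 genes counted and passed the filter on low counts in both cell types. RNA came from HL60/S4, an established human promyelocytic leukemia cell line, in 4 groups of 3 libraries. Undifferentiated cells (promyelocytes) received water as vehicle or 16 ng/mL TNF for 2 h, and cells that had been turned towards granulocytes over 4 days by all trans retinoic acid (ATRA, 1 µM) received the same pair of treatments. All 4 groups were at 8 passages, were treated in medium with added calcium and descended from 1 seed-lot of 1 cell line, and each library came from its own flask, so that the p-values measure the spread between flasks of that line. The promyelocyte and the granulocyte experiments were run separately. Before treatment the granulocytes were resuspended at a lower cell density than the promyelocytes, in fresh medium that again held ATRA.

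TNF acts as a trimer on a pair of receptors. TNFRSF1A (TNFR1) is found on most cells and carries a death domain that binds TRADD and RIPK1, whereas TNFRSF1B (TNFR2), typical of blood and endothelial cells, has no death domain and binds TRAF2 directly. TRAF2 brings the cIAP proteins to the receptor, where their ubiquitin chains on RIPK1 form the platform that activates NF-kB, and TRAF2, TRAF3 and the cIAPs together also hold down the NF-kB-inducing kinase of the non-canonical pathway. *TRAF1* and *BIRC3* are long known as genes that NF-kB itself switches on.

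Libraries held 22829189 to 31895061 read pairs on genes, and 3 read pairs, taken as the floor of detection, correspond to 0.0941 to 0.131 CPM (counts scaled to the library size) with counting error alone considered. The labelled cell types were checked against their markers. All 7 granulocytic differentiation genes were above the floor in every group, with a summed level of 160 to 168 CPM in vehicle-treated promyelocytes and 4828 to 5089 CPM in vehicle-treated granulocytes. The 5 azurophil granule genes of promyelocytes summed to 7321 to 8147 CPM in the former and 2134 to 2346 CPM in the latter, where 1 of the 5 was no longer above the floor. With TNF the granulocytic genes summed to 267 to 282 CPM in promyelocytes and 5429 to 5772 CPM in granulocytes, above vehicle in both, and the azurophil genes to 6065 to 6966 CPM in promyelocytes, below vehicle, and 2145 to 2352 CPM in granulocytes, overlapping it. Of 5 monocyte or macrophage markers, 2 were above the floor in promyelocytes and 3 in granulocytes. Their sum was 3.86 to 4.73 CPM with vehicle and 2.90 to 3.88 CPM with TNF in promyelocytes, and 49.3 to 51.3 CPM and 30.1 to 34.1 CPM in granulocytes, where TNF libraries lay wholly below vehicle. Of 5 lymphoid markers, 3 or 4 were above the floor, with sums of 10.5 to 15.05 CPM over all libraries and *MS4A1* at 0. Of 4 erythroid or megakaryocytic markers, 1 or 2 were above the floor, with sums of 0.637 to 2.14 CPM and *HBB* and *PF4* at 0. The part of these shifts with TNF in the results that follow was not tested.

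Each gene was compared between TNF and vehicle within a cell type by edgeR's quasi-likelihood test, and a gene was called when its Benjamini-Hochberg adjusted p over all genes tested was under 0.05. In promyelocytes 4 of the 9 genes rose (*TRAF1*, *TRAF3*, *BIRC2* and *BIRC3*), 2 fell (*TNFRSF1A* and *TNFRSF1B*) and 3 were not called (*TRADD*, *TRAF2* and *RIPK1*). Of all 16250 genes tested there, 14.8% were called, 8.15% upward and 6.65% downward. In granulocytes the same 4 genes and *TRAF2* rose, the same receptors fell, and *TRADD* and *RIPK1* were not called. There 49.2% of 16944 genes tested were called, 24.4% upward and 24.8% downward, so that a call in granulocytes sets a gene apart less than one in promyelocytes. The plot of fold changes shows how unequal the responses were: *BIRC3* and *TRAF1* changed by more than 4 on the log2 scale in both cell types, and both receptors by less than 0.5.

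**Figure D1:**
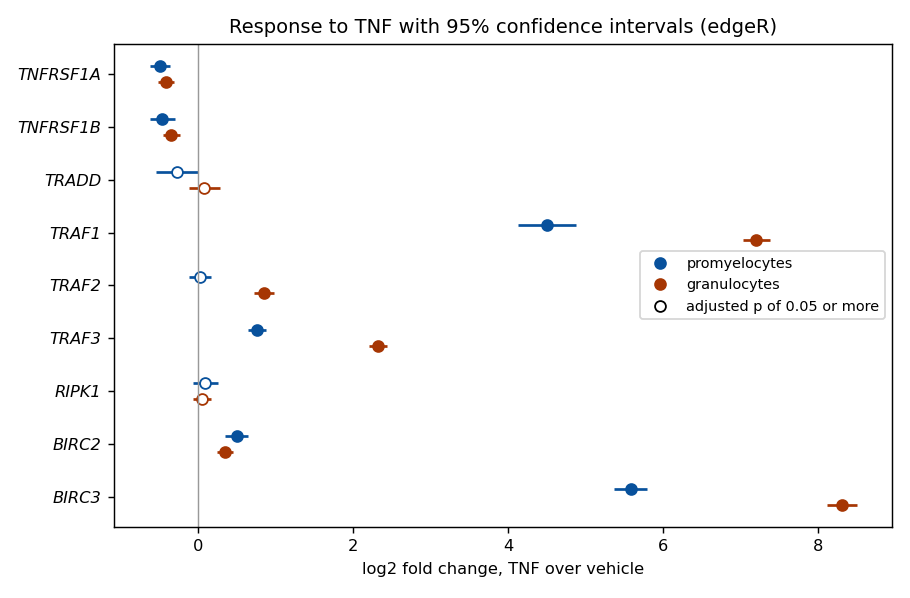
Log2 fold change of TNF over vehicle (horizontal axis) for the 9 genes in promyelocytes (blue) and granulocytes (brown), with 95% confidence intervals from edgeR; open circles mark an adjusted p of 0.05 or more. *TRAF1*, *TRAF2*, *TRAF3* and *BIRC3* lie further to the right in granulocytes, while the intervals of the other 5 genes overlap between the cell types. For *TRAF1* and *BIRC3* a second method, DESeq2, gave larger SEs than those behind these intervals, and the intervals of *BIRC3* are too narrow.

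*TNFRSF1A*, the receptor with the death domain (chr12:6328757-6342114, hg38, minus strand), had the highest level per kilobase of the 9 genes in 3 of the 4 groups and fell with TNF. In promyelocytes the vehicle libraries stood at 132, 129 and 124 CPM and the TNF libraries at 88.1, 89.6 and 98.1 CPM. All TNF libraries lay below all vehicle libraries, a log2 fold change of -0.48 ± 0.0604 (SE, n = 3 per group, edgeR adjusted p = 6.61e-06) or a 1.40-fold lower level. Granulocytes held 209, 202 and 212 CPM with vehicle and 168, 149 and 153 CPM with TNF, again without overlap. The change was -0.41 ± 0.0504 (SE, edgeR adjusted p = 1.26e-08), 1.33-fold lower. In bulk RNA, fewer cells that express a gene and less RNA of it per cell cannot be told apart.

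*TNFRSF1B*, the receptor without a death domain (chr1:12167003-12209228, plus strand), fell by a similar size. Its promyelocyte libraries held 46.1, 38.6 and 43.99 CPM with vehicle and 32.2, 28.6 and 33.2 CPM with TNF, a log2 fold change of -0.46 ± 0.0782 (SE, edgeR adjusted p = 0.000298). The granulocyte libraries held 78.3, 79.9 and 84.7 CPM with vehicle and 66.3, 63.6 and 62.4 CPM with TNF, a change of -0.34 ± 0.0533 (SE, edgeR adjusted p = 1.60e-06). In neither cell type did the groups overlap. The exons of *TNFRSF1B* share 36 bases (0.96% of their length) with the microRNA gene *MIR7846* on the same strand, where some read pairs may not have been assigned to either gene.

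Since both receptors fell, the balance between them was compared within each library, per kilobase of gene length, which needs no scaling between libraries. *TNFRSF1B* made up 26.2% ± 1.81 (SD, n = 3) of the RNA of both receptors in vehicle-treated and 26.6% ± 1.33 in TNF-treated promyelocytes. In granulocytes its share was 29.3% ± 0.732 with vehicle and 30.3% ± 0.8001 with TNF. The ranges overlapped in both cell types (two-sided exact permutation p = 0.8 and 0.3, or 0.8 and 0.333 after Benjamini-Hochberg adjustment over 10 tests of shares). In promyelocytes the difference of 0.398 percentage points was smaller than the SDs of 1.81 and 1.33 points. In granulocytes the difference of 1.05 points was larger than the SDs of 0.732 and 0.8001 points.

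*TRADD*, the adaptor that the death domain of TNFRSF1A recruits (chr16:67154180-67160298, minus strand), ranked just above the near silent *TRAF1* and *BIRC3* without TNF, and no change was called. Promyelocytes held 6.68, 6.52 and 6.49 CPM with vehicle and 4.87, 5.59 and 5.94 CPM with TNF. The TNF libraries were all below the vehicle libraries, yet the log2 fold change of -0.26 had a 95% interval of -0.53 to 0.01 and an edgeR adjusted p of 0.205. In granulocytes the groups overlapped, with 11.97, 10.4 and 11.6 CPM against 10.9, 11.8 and 13.4 CPM and a change of 0.09 (95% interval -0.11 to 0.29, edgeR adjusted p = 0.490). With *TRADD* counted, the TNF libraries of promyelocytes lay wholly below vehicle for 3 of the 9 genes and wholly above for 4, where 15.1% and 16% of all genes did so. In granulocytes they lay below for 2 and above for 5, against 27.9% and 27.3% of all genes.

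*RIPK1*, the kinase that is ubiquitinated at the receptor (chr6:3063991-3115187, plus strand), was not called in either cell type. Its libraries stood at 33.3, 28.8 and 34.6 CPM with vehicle and 34.7, 33.7 and 35.1 CPM with TNF in promyelocytes. In granulocytes they stood at 55.9, 62.8 and 58.4 CPM with vehicle and 62.8, 63.2 and 57.6 CPM with TNF. The groups overlapped in both. The log2 fold change was 0.10 in promyelocytes (95% interval -0.06 to 0.26, edgeR adjusted p = 0.438) and 0.05 in granulocytes (-0.06 to 0.17, adjusted p = 0.476).

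**Figure D2:**
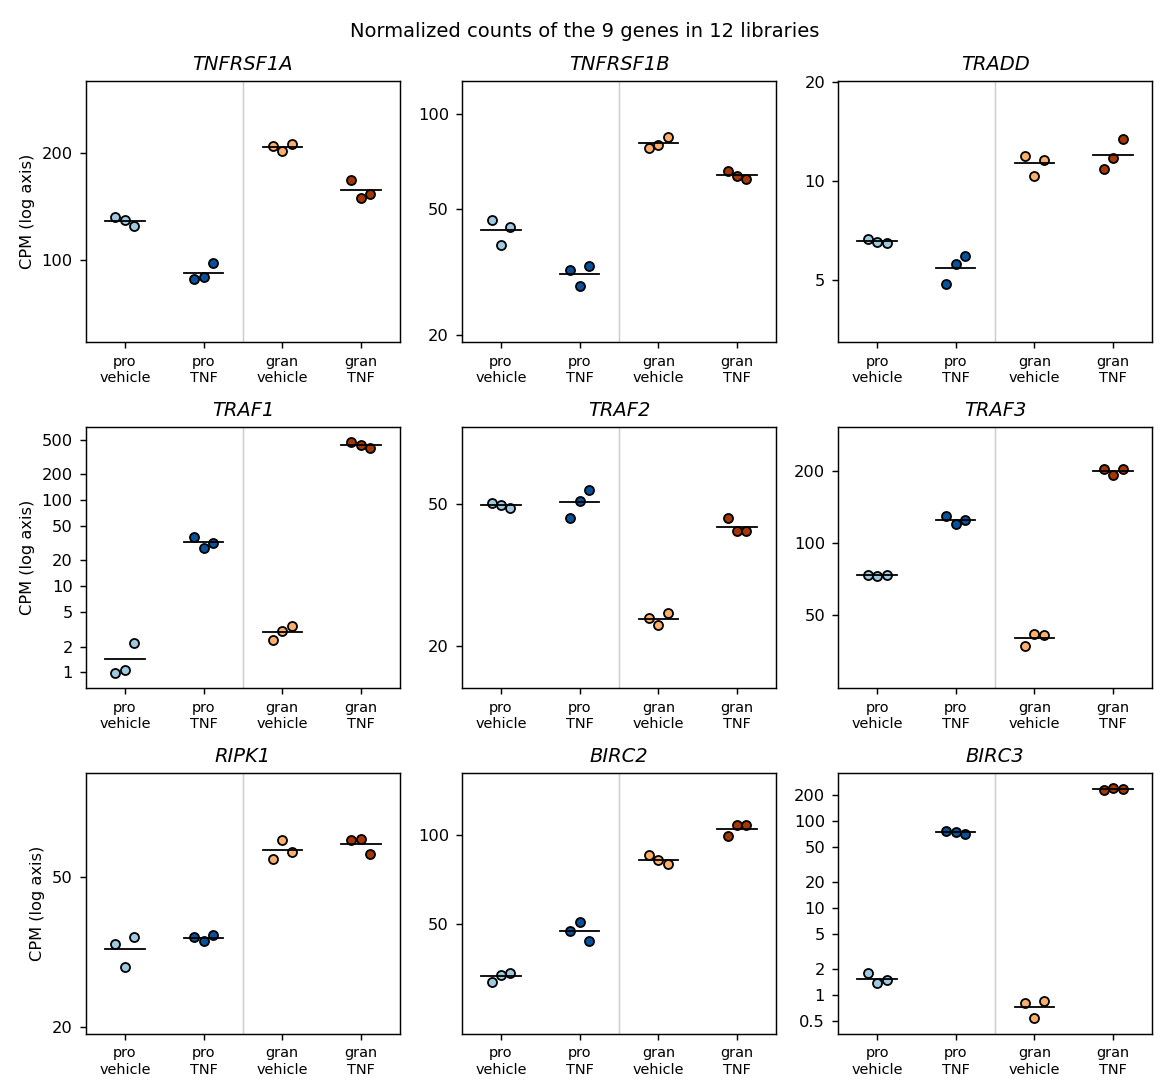
CPM of each gene (vertical log axes, each with its own range) in the 3 libraries of each group, with the group mean as a line; pro, promyelocytes; gran, granulocytes; CPM are scaled within each cell type. TNF libraries of *TRAF1* and *BIRC3* stand far above vehicle in both cell types and those of both receptors below vehicle, while those of *TRAF2* spread around vehicle in promyelocytes and lie above it in granulocytes.

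*TRAF1*, a TRAF protein that lacks the RING domain and pairs with TRAF2 (chr9:120902393-120929173, minus strand), went from near silence to a high level. Vehicle-treated promyelocytes held 0.991, 1.06 and 2.22 CPM, which are 31, 29 and 64 read pairs, and TNF-treated promyelocytes 37.0, 28.2 and 31.9 CPM. The third vehicle library was above its 2 companions, but every TNF library was far above all of them. The log2 fold change was 4.51 ± 0.178 (SE, edgeR adjusted p = 1.75e-13), a 22.7-fold rise that ranked 22 among 16250 genes. In granulocytes the level went from 2.39, 3.004 and 3.51 CPM to 477, 440 and 404 CPM, a log2 fold change of 7.20 ± 0.0870 (SE, edgeR adjusted p = 9.75e-39). This 147-fold rise ranked 18 among 16944 genes. With DESeq2 the SE was larger, 0.366 in promyelocytes and 0.158 in granulocytes, so the edgeR SEs may be too small for this gene.

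*TRAF2*, the adaptor that carries the cIAP proteins to both receptors (chr9:136881912-136926607, plus strand), was called in granulocytes and not in promyelocytes. Promyelocytes held 50.6, 49.8 and 48.7 CPM with vehicle and 45.9, 51.1 and 54.9 CPM with TNF, where the TNF libraries spread around the vehicle libraries. The log2 fold change was 0.03 (95% interval -0.12 to 0.17, edgeR adjusted p = 0.835). Granulocytes went from 24.0, 23.0 and 24.9 CPM to 45.7, 42.0 and 42.0 CPM without overlap, a change of 0.85 ± 0.0644 (SE, edgeR adjusted p = 6.00e-14) or 1.80-fold.

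*TRAF3*, which links TRAF2 and the cIAPs to the NF-kB-inducing kinase (chr14:102777476-102911500, plus strand), rose in both cell types. Promyelocytes went from 73.5, 72.7 and 73.5 CPM to 129, 120 and 125 CPM, a log2 fold change of 0.77 ± 0.0574 (SE, edgeR adjusted p = 4.27e-09). Granulocytes went from 37.0, 41.7 and 41.2 CPM to 204, 193 and 204 CPM, a change of 2.33 ± 0.0550 (SE, edgeR adjusted p = 1.35e-29) or 5.01-fold. Without TNF granulocytes were the lower of the cell types in every library, and with TNF the higher.

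The stretch upstream of these genes is shown because *TRAF1* and *TRAF3* both rose but differ in it. RefSeq windows of the 250 bases before a transcript start (GRCh38.p14, sense strand of the gene, 5′ to 3′) were available for 8 of the 9 genes, 13 windows in all, and were searched on both strands for the kappaB consensus of NF-kB. It was found in 9.96% of all 35116 windows of this length and in 2 of these 13, those of *TRAF3* and *BIRC3*, too few to be told from that share. The window of *TRAF3* (chr14:102777199-102777448, plus strand) holds 1 match, in capitals, 33 to 24 bases before the start. None of the 3 windows of *TRAF1* holds a match, and the one at the outermost start is given (chr9:120929172-120929421, minus strand).
TRAF3: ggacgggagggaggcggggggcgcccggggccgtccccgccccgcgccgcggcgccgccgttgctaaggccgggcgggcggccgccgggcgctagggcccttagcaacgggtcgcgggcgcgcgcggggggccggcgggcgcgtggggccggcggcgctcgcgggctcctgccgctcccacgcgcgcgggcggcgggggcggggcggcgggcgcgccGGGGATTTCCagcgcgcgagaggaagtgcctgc
TRAF1: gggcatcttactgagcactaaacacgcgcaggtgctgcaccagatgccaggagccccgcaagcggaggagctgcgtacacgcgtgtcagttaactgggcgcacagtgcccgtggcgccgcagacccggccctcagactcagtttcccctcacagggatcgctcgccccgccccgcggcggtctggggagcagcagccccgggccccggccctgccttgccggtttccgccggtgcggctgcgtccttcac

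*BIRC2* (cIAP1) and *BIRC3* (cIAP2) encode closely related ubiquitin ligases and lie next to each other on chromosome 11, *BIRC3* at 102317450 to 102339403 and *BIRC2* at 102347211 to 102378670, both on the plus strand. Their responses differed widely. *BIRC2* rose from 32.0, 33.7 and 34.3 CPM to 47.4, 50.9 and 43.7 CPM in promyelocytes, a log2 fold change of 0.51 ± 0.0700 (SE, edgeR adjusted p = 2.42e-05). The granulocyte level rose from 85.7, 82.0 and 79.7 CPM to 98.9, 108 and 108 CPM, a change of 0.35 ± 0.0524 (SE, edgeR adjusted p = 6.08e-07). The groups did not overlap in either cell type, although the rises were only 1.42-fold and 1.27-fold.

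*BIRC3* had the largest response of the 9 genes. Promyelocytes held 1.76, 1.36 and 1.46 CPM with vehicle (37 to 55 read pairs) and 76.8, 74.01 and 69.8 CPM with TNF, a log2 fold change of 5.58 ± 0.101 (SE, edgeR adjusted p = 4.77e-19). Granulocytes held 0.808, 0.534 and 0.843 CPM with vehicle (16 to 25 read pairs) and 225, 238 and 230 CPM with TNF, a change of 8.31 ± 0.0939 (SE, edgeR adjusted p = 2.28e-39). These are rises of 47.9-fold and 317-fold, rank 11 of 16250 genes in promyelocytes and rank 8 of 16944 in granulocytes. The vehicle level was low but above the floor of 3 read pairs in all 6 libraries. With DESeq2 the SE was larger, 0.147 in promyelocytes and 0.190 in granulocytes. The edgeR SEs are too small here, below what counting error alone gives at so few vehicle read pairs.

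The windows of the neighbouring cIAP genes are shown for the same contrast. That of *BIRC3* (chr11:102317234-102317483, plus strand) holds 2 kappaB matches, in capitals, at 199 to 190 and 135 to 126 bases before the start. Neither of the 2 windows of *BIRC2* holds a match, and the outer one is given (chr11:102346964-102347213, plus strand). A match describes these letters and was not measured as a bound site.
BIRC3: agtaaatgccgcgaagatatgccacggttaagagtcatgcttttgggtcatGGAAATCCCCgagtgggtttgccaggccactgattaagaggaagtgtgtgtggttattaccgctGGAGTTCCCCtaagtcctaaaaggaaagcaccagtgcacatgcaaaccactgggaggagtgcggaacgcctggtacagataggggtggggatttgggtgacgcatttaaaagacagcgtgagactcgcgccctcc
BIRC2: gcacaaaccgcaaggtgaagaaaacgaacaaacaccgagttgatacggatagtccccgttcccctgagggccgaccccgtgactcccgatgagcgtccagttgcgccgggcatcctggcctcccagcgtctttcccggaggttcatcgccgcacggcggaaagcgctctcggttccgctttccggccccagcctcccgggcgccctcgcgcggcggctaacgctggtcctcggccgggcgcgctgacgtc

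How the composition of each family shifted was read within libraries, again per kilobase. Length was that of all annotated exons, 7518 bases for *BIRC3* and 4532 for *BIRC2*. The transcripts in use were not determined, so the size of a share depends on this choice of length. *BIRC3* made up 2.69% ± 0.453 (SD, n = 3) of the RNA of both cIAP genes in vehicle-treated promyelocytes and 48.4% ± 1.48 with TNF. In granulocytes the share went from 0.530% ± 0.125 to 57.0% ± 0.861, so that the cIAP RNA was almost all *BIRC2* before TNF and mostly *BIRC3* after it. Among the 3 TRAF genes, *TRAF1* went from 0.977% ± 0.478 to 14.8% ± 1.91 in promyelocytes and from 3.87% ± 0.589 to 65.4% ± 1.74 in granulocytes. The share of *TRAF2* went from 59.9% ± 0.785 to 40.7% ± 3.29 in promyelocytes and from 55.3% ± 2.11 to 11.3% ± 0.262 in granulocytes, where its own level had nearly doubled. Only the share of *TRAF3* moved in opposite directions, from 39.1% ± 0.306 to 44.5% ± 1.55 in promyelocytes and from 40.9% ± 1.79 to 23.3% ± 1.49 in granulocytes. Its own level rose in both, 1.70-fold in promyelocytes and 5.01-fold in granulocytes. In each of these 8 comparisons the TNF and vehicle libraries did not overlap, and the two-sided exact permutation p was 0.1, the smallest that 3 against 3 libraries allow (0.125 after Benjamini-Hochberg adjustment over the 10 tests). The shares of the 3 TRAF genes add up to the whole in each library, so their comparisons are not independent. In promyelocytes the share of *TRAF2* fell although no change of its own level was called.

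**Figure D3:**
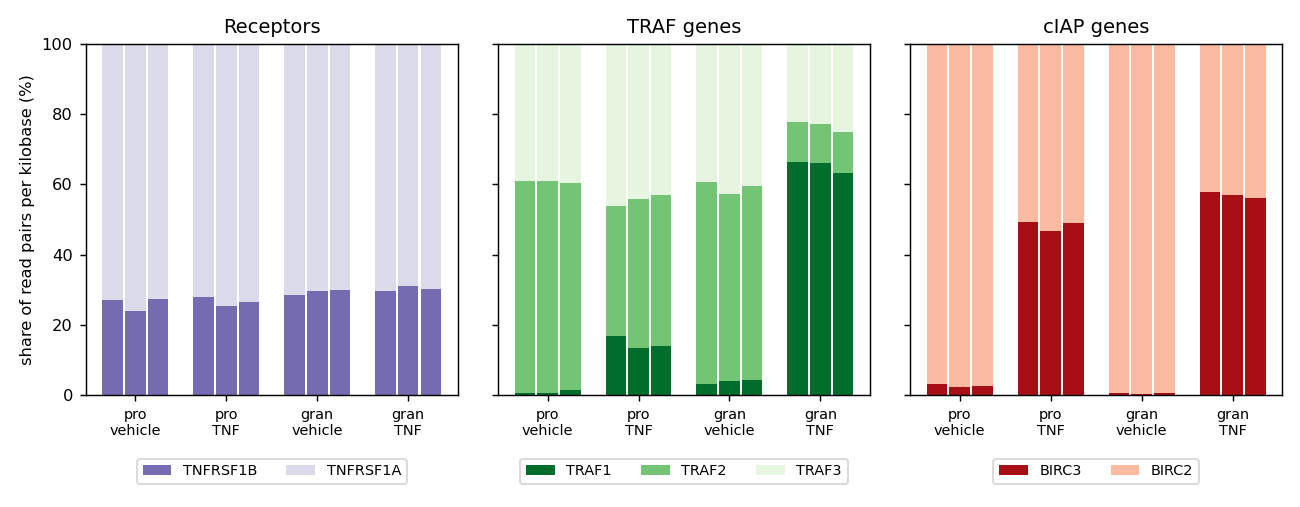
Share of read pairs per kilobase of gene length (vertical axis, %) taken by each gene of a family, 1 bar per library, for the receptors, the TRAF genes and the cIAP genes; pro, promyelocytes; gran, granulocytes. The share of *TNFRSF1B* lies between 24.1% and 31.2% over all libraries. It is higher in every granulocyte library (28.5% or more) than in every promyelocyte library (28.0% or less), a description with no test. *TRAF1* reaches 63.4% to 66.5% and *BIRC3* 56.2% to 57.9% in TNF-treated granulocytes.

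Whether the response to TNF differed between the cell types was tested as the interaction in 1 edgeR fit of all 12 libraries. It was larger in granulocytes for 4 of the 9 genes and was called smaller for none, where 24% of 18124 genes tested were called, 14.1% as larger and 9.88% as smaller in granulocytes. That split of all genes, 2561 against 1790, became 2128 against 2266 with DESeq2's size factors. The difference of the log2 responses was 2.77 ± 0.203 for *BIRC3* (SE, edgeR adjusted p = 6.64e-11), 2.73 ± 0.278 for *TRAF1* (adjusted p = 2.67e-08), 1.60 ± 0.0779 for *TRAF3* (adjusted p = 2.06e-14) and 0.86 ± 0.0967 for *TRAF2* (adjusted p = 1.37e-07). Thus all 3 TRAF genes and 1 of the 2 cIAP genes responded more strongly in granulocytes. With DESeq2 the SE of the difference was larger, 0.236 for *BIRC3* and 0.363 for *TRAF1*. The edgeR SE of *BIRC3* is too small here as well.

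For the other 5 genes no difference between the responses was called. The difference was 0.11 for *TNFRSF1A* (95% interval -0.06 to 0.28, edgeR adjusted p = 0.354) and 0.16 for *TNFRSF1B* (-0.04 to 0.36, adjusted p = 0.266). *RIPK1* stood at -0.01 (-0.21 to 0.19, adjusted p = 0.966) and *BIRC2* at -0.12 (-0.29 to 0.06, adjusted p = 0.360). *TRADD*, at 0.38 (0.06 to 0.71), came nearest to a call with an edgeR adjusted p of 0.0770, and passed the threshold at 0.45 (adjusted p = 0.0496) when the third TNF library of promyelocytes was left out. An unadjusted interval that leaves out 0 does not amount to a call over all genes tested.

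Levels were compared between genes and between cell types as RPKM, the CPM scaled over all 12 libraries and divided by the gene's exonic length in kilobases. That length takes in all annotated exons, and the order of the genes depends on it. Cell type and experiment cannot be told apart, so these levels are a description with no test. In vehicle-treated promyelocytes the order was *TNFRSF1A* at 32.3 ± 1.45 RPKM (SD, n = 3), *TRAF2* at 13.7 ± 0.444, *TNFRSF1B* at 11.5 ± 1.12, *TRAF3* at 8.93 ± 0.144, *RIPK1* at 7.67 ± 0.730, *BIRC2* at 7.41 ± 0.169, *TRADD* at 2.58 ± 0.0756, *TRAF1* at 0.222 ± 0.105 and *BIRC3* at 0.204 ± 0.0306. *RIPK1* overlapped *BIRC2*, and *TRAF1* overlapped *BIRC3*, while all other neighbours in that order were apart. In vehicle-treated granulocytes *TNFRSF1A* led again at 51.7 ± 1.37 RPKM, followed by *TNFRSF1B* at 21.4 ± 0.847, *BIRC2* at 18.1 ± 0.717, *RIPK1* at 13.9 ± 0.761, *TRAF2* at 6.505 ± 0.267, *TRAF3* at 4.81 ± 0.289, *TRADD* at 4.40 ± 0.334, *TRAF1* at 0.458 ± 0.0855 and *BIRC3* at 0.0965 ± 0.0226. Only *TRAF3* and *TRADD* overlapped there.

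Vehicle-treated granulocytes thus stood above vehicle-treated promyelocytes in every library for 6 of the 9 genes and below for 3, where 36.4% and 39.9% of 15393 genes did so. The receptors were 1.60-fold (*TNFRSF1A*) and 1.87-fold (*TNFRSF1B*) higher in granulocytes, *TRADD* 1.70-fold, *RIPK1* 1.82-fold, *TRAF1* 2.18-fold and *BIRC2* 2.44-fold. The value of *TRAF1* is loose, with an SD of up to 0.629 on the log2 scale within a group. Its nearest libraries stood at 0.343 RPKM in promyelocytes (64 read pairs) and 0.370 RPKM in granulocytes (62 read pairs). *TRAF2* was 2.10-fold, *TRAF3* 1.86-fold and *BIRC3* 2.15-fold higher in promyelocytes. The same genes stood above and below with DESeq2's size factors and with library totals alone, and the median log2 difference of all genes was -0.04, -0.01 and 0.03 under the 3 scalings.

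With TNF the order was rearranged, most of all in granulocytes. There *TRAF1* led at 68.6 ± 6.03 RPKM, above *TNFRSF1A* at 39.3 ± 2.67 and *BIRC3* at 30.9 ± 0.744. *TRAF3* at 24.4 ± 0.854 and *BIRC2* at 23.3 ± 1.07 overlapped and were followed, each apart from the next, by *TNFRSF1B* at 17.1 ± 0.616, *RIPK1* at 14.5 ± 0.776, *TRAF2* at 11.9 ± 0.641 and *TRADD* at 4.71 ± 0.488. The genes that had been last and next to last without TNF, *BIRC3* and *TRAF1*, were now among the leading 3. In TNF-treated promyelocytes *TNFRSF1A* still led at 22.7 ± 1.37 RPKM, *TRAF3* at 14.9 ± 0.535 overlapped *TRAF2* at 13.7 ± 1.25, *BIRC2* at 10.3 ± 0.774 overlapped *BIRC3* at 9.69 ± 0.451, and *TNFRSF1B* at 8.24 ± 0.640 overlapped *RIPK1* at 8.08 ± 0.173. *TRAF1* at 4.97 ± 0.680 and *TRADD* at 2.11 ± 0.214 came last. *TRAF3* and *BIRC3*, lower in granulocytes without TNF, were 1.63-fold and 3.19-fold higher there with it, and *TRAF1* was 13.8-fold higher.

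**Figure D4:**
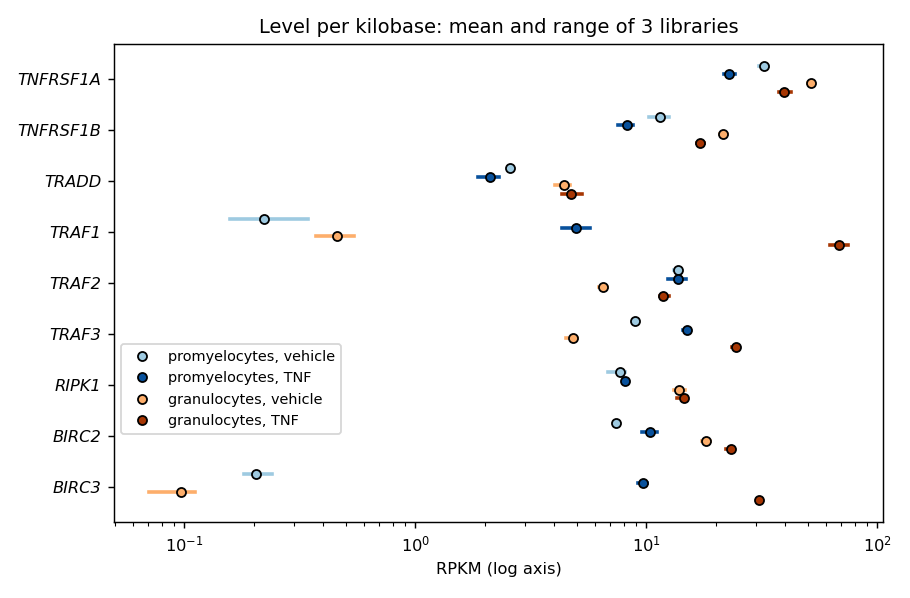
Level of each gene in RPKM (horizontal log axis), as the mean (points) and the range (lines) of 3 libraries for each of the 4 groups. For *TRAF3* and *BIRC3* vehicle-treated granulocytes are the lowest group and TNF-treated granulocytes the highest, and for both receptors all granulocytes lie above all promyelocytes.

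For each gene the 2 genes with the most similar profile over the 12 libraries were sought among 11781 genes (Pearson r of log2 CPM). The 12 libraries form 4 groups, so such r values mostly follow the group means and are given as a description. *BIRC3* was nearest to *TNFAIP3*, a ubiquitin-editing inhibitor of NF-kB (r = 0.997), and *NFKBIA*, the inhibitor that holds NF-kB in the cytoplasm (r = 0.997). *TRAF3* was nearest to *IL27RA* (r = 0.998) and *MGLL* (0.995), *TRAF1* to *BAZ1A* (0.993) and the cytokine gene *IL1A* (0.993), and *TRAF2* to *NSMF* (0.997) and *INF2* (0.989). *TNFRSF1A* was nearest to *ARHGAP45* (r = 0.992) and *SOWAHD* (0.990), *TNFRSF1B* to *RGS14* (0.991) and *PHC2* (0.990), and *TRADD* to *ZBTB48* (0.987) and *B3GAT3* (0.986). *RIPK1* was nearest to *PLPP6* (r = 0.993) and *SAMD8* (0.990), and *BIRC2* to *ITGB2-AS1* (0.996) and *SPPL2A* (0.995). No member of the group was among the nearest genes of another.

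The other genes of the pathway were read from 9 lists with 51 genes. These lists were chosen with earlier results of these data known, so their counts and medians are a description. In promyelocytes 15 of the 47 tested rose and 4 fell, with a median log2 fold change of 0.08 against -0.01 for all genes tested, of which 8.15% rose and 6.65% fell. In granulocytes 25 of 46 rose and 8 fell, with a median of 0.19 against -0.00470 for all genes tested, of which 24.4% rose and 24.8% fell. The counts of the single lists below are too small to be set against these shares and describe their members only. Not tested for low counts were *TRAF5*, *RHBDF1*, *BIRC7* and *TNIP3* in both cell types and *LTA* in granulocytes, with at most 13 read pairs in any library.

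Among ligands and the machinery that sheds them, 4 of 5 genes rose in promyelocytes and 3 of 4 in granulocytes. *TNF* itself rose by 1.91 ± 0.0644 (SE, log2, edgeR adjusted p = 1.28e-14) in promyelocytes and by 2.503 ± 0.0757 (adjusted p = 4.18e-26) in granulocytes. *ADAM17*, the protease that releases TNF and its receptors from the membrane, rose by 0.34 and 1.39 (edgeR adjusted p = 0.000498 and 8.97e-24). *LTB*, at a low level, rose by 2.54 in promyelocytes, from 0.629 to 3.67 CPM (edgeR adjusted p = 6.41e-07). In granulocytes it stood at 0.38 and was not called (adjusted p = 0.306). *LTA* rose by 2.03 in promyelocytes (edgeR adjusted p = 0.00725). Of the other TRAF genes, *TRAF4* rose by 0.86 and 2.25 (edgeR adjusted p = 2.35e-07 and 1.06e-17) and *TRAF6* by 0.32 in both, and *TRAF7* fell by 0.13 in granulocytes (edgeR adjusted p = 0.0335), a call that was lost with DESeq2 (adjusted p = 0.0755), with the replicate block (0.0776) and with all 12 libraries in 1 fit (0.184).

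Among 7 other adaptors at or near the receptors, 1 rose and 2 fell in promyelocytes, and 1 rose and 5 fell in granulocytes. The one that rose was *TANK*, a TRAF-binding protein, with log2 fold changes of 1.24 and 1.21 (edgeR adjusted p = 8.57e-10 and 9.68e-22). *TRAF3IP2* fell by 0.50 in promyelocytes (edgeR adjusted p = 0.000524), the largest decrease among the lists there, and by 0.82 in granulocytes. *BAG4*, which binds the death domain of TNFRSF1A in the absence of ligand, stood at 0.01 in promyelocytes (edgeR adjusted p = 0.912) and fell by 0.51 in granulocytes (adjusted p = 6.28e-11). *MADD*, counted among the falls in granulocytes, stood at -0.13 (edgeR adjusted p = 0.0339). Its call was lost with DESeq2 (adjusted p = 0.0736), with the replicate block (0.0860) and with all 12 libraries in 1 fit (0.0944).

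Of the other IAP genes and their antagonists, 1 of 6 rose in promyelocytes, and 2 rose and 1 fell in granulocytes. *XIAP*, an inhibitor of caspases, had a log2 fold change of 0.04 in promyelocytes (edgeR adjusted p = 0.747) and rose by 0.13 in granulocytes (adjusted p = 0.0488). That call was lost with DESeq2 (adjusted p = 0.0935), with the replicate block in edgeR (0.1001) and with all 12 libraries in 1 fit (0.0638). *NAIP*, a sensor of bacterial proteins that carries the same BIR domains, fell by 1.17 in granulocytes (edgeR adjusted p = 1.40e-13), the largest decrease among the lists. None of these genes changed on the scale of *BIRC3*.

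Deubiquitinases and ubiquitin binders that restrain the receptor complex rose in 3 of 6 cases in promyelocytes and 5 of 6 in granulocytes. *TNFAIP3* rose by 3.63 and 5.08 (log2, edgeR adjusted p = 3.03e-19 and 3.56e-38), from 35.2 to 435 CPM in promyelocytes and from 27.8 to 941 CPM in granulocytes. *CYLD* rose by 1.60 and 0.89 and *TNIP1* by 0.74 and 2.36. In the non-canonical NF-kB list, 2 of 4 genes rose in promyelocytes and 4 of 4 in granulocytes, led by *NFKB2* at 3.85 and 4.87 and *RELB* at 2.96 and 4.01, all 4 values with edgeR adjusted p of 2.30e-16 or less.

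Subunits of the kinase and ligase complexes moved little. In the TAK1 and IKK complexes 1 of 7 genes rose and 1 fell in promyelocytes and 4 rose and 1 fell in granulocytes, with log2 fold changes between -0.41 (*TAB1*, granulocytes) and 0.32 (*TAB2*, granulocytes). Some of these calls were not stable. *TAB1* in promyelocytes (edgeR adjusted p = 0.0408) was lost with DESeq2 (adjusted p = 0.0645) and the replicate block (0.123). *CHUK* in granulocytes (edgeR adjusted p = 0.0474) was lost with DESeq2 (0.0897) and the replicate block (0.0849). *IKBKG* in granulocytes (edgeR adjusted p = 0.00115) was lost with GC and length trends removed (0.0804). Of the 3 genes of the linear ubiquitin ligase, 1 fell in promyelocytes (*RBCK1*, -0.28) and 1 rose in granulocytes (*RNF31*, 0.17). The call of *RNF31* (edgeR adjusted p = 0.0298) was lost with DESeq2 (adjusted p = 0.0891), with the replicate block (0.0594) and with GC and length trends removed (0.577), and that of *RBCK1* (adjusted p = 0.0167) without vehicle replicate 1 (0.114) or without TNF replicate 1 (0.0584) or 2 (0.0808). In the death-inducing complex, 1 of 6 genes rose in promyelocytes and 3 in granulocytes. The call of *FADD* in granulocytes (edgeR adjusted p = 0.00643) was lost with GC and length trends removed (adjusted p = 0.103). The largest rise was that of *CFLAR*, the caspase-like inhibitor of *CASP8*, with 1.21 and 1.26 (edgeR adjusted p = 1.37e-11 and 2.61e-22), whereas *CASP8* stood at 0.00146 and 0.02 and was not called.

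**Figure D5:**
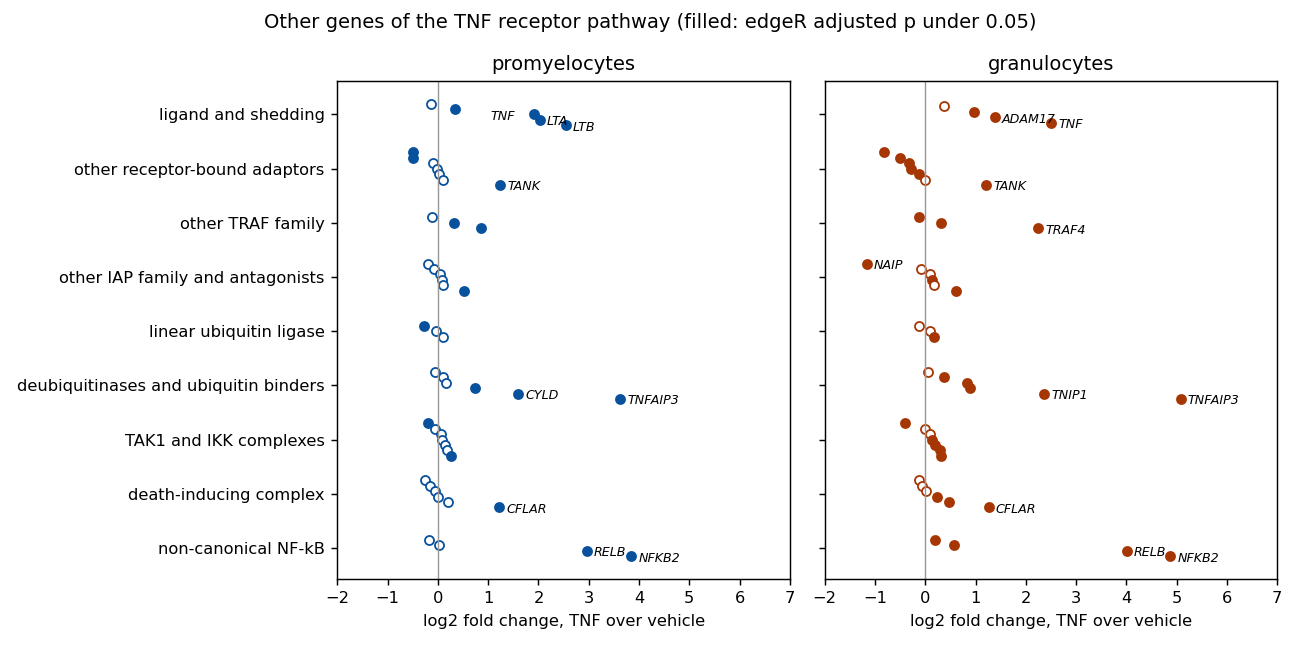
Log2 fold change of TNF over vehicle (horizontal axes) for the other genes of the TNF receptor pathway, by list, in promyelocytes (left) and granulocytes (right); filled points were called by edgeR, and genes beyond 1 in either direction are named. *TNFAIP3*, *NFKB2* and *RELB* lie furthest to the right in both cell types, and *NAIP* furthest to the left in granulocytes.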

How the data were processed

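Total RNA depleted of ribosomal RNA was sequenced as paired ends. Per the submitters' processing notes and the file header, the authors used FastQC 0.11.4, STAR 2.5.3a (hg38), featureCounts 1.5.2 (GENCODE 27, primary alignments, both ends mapped, not chimeric, strand option 2) and, for their own tests, DESeq2 1.16.1. They deposited raw counts of read pairs per gene and each gene's exonic length. Library preparation or depth that differed between the separately run experiments would enter the levels but not the comparisons within a cell type.

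Symbols were matched for 57532 of 58288 identifiers (GENCODE 44). The 6 libraries of a cell type were fitted without the others (edgeR 4.0.16, R 4.3.3; TMM, filterByExpr with minimum count 10 and minimum total 15, quasi-likelihood test, Benjamini-Hochberg, threshold 0.05; prior count 0.125), and the interaction over 12 libraries. SEs came from the log2 fold change and F, and were too small for *BIRC3* and possibly for *TRAF1*. Each fit was tested on simulated data. Depth was 22829189 to 31895061 read pairs; floors of 3 counts cover counting error only. CPM are on the scale of the fits, RPKM over 12 libraries.

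Named genes were the 9 genes, genes of the pathway lists with at least the largest called increase and decrease, and for each of the 9 the 2 most similar genes (prior count 2, mean log2 CPM of at least 1). The members and lists were chosen with earlier results of these data known. Promoter windows came from RefSeq (GRCh38.p14). *TRADD* had none. The kappaB consensus searched was GGGRNNYYCC, with R for A or G, Y for C or T and N for any base. Alternatives were DESeq2's size factors, no filter, DESeq2 1.42.0, a replicate block, GC and length trends removed (splines with 6 df, alone and with the block), all libraries in 1 fit, and leaving out each library; for the pathway lists the filter, trend, 12-library and left-out settings were added after seeing the data. Shares were compared by two-sided exact permutation tests (scipy 1.17.1).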

Additional observations from a re-analysis of the deposited data

Results flagged for a closer look

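The response to TNF of 4 genes differed between the cell types by a test of the difference itself, the interaction in edgeR's fit of 12 libraries. *BIRC3* responded more strongly in granulocytes by 2.77 on the log2 scale, with a rise of 5.58 in promyelocytes and 8.31 in granulocytes. *TRAF1* differed by 2.73, with rises of 4.51 and 7.20. *TRAF3* differed by 1.60, with rises of 0.77 and 2.33. *TRAF2* differed by 0.86, with 0.03 in promyelocytes, which was not called, and a rise of 0.85 in granulocytes. These 4 were called in all 17 alternative fits, with the difference between 2.57 and 2.90 for *BIRC3*, 2.27 and 2.94 for *TRAF1*, 1.44 and 1.63 for *TRAF3*, and 0.64 and 0.93 for *TRAF2*. The cell types were treated in separate experiments and at different cell densities. The part of experiment and density in these differences cannot be told apart from that of the cell type.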

How the results depend on the processing

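The calls of the 9 genes within each cell type were kept in all 13 alternative fits per cell type, as were the 4 called differences between cell types in 17. Directions turned for values that were not called: *TRAF2* in promyelocytes to -0.0325 without TNF replicate 3 (range -0.0325 to 0.0936 over the 6 fits that each lack a library), *TRADD* in granulocytes to -0.0856 with GC and length trends removed and -0.0846 with the replicate block added, and, with the trends removed, the difference between cell types to -0.0225 for *TNFRSF1A*, -0.0416 for *TNFRSF1B* and 0.00706 for *BIRC2*. That of *RIPK1* ranged from -0.0586 to 0.0661 when 1 library was left out and was above 0 at 0.0327 (TNF replicate 3 of granulocytes), 0.0341 (vehicle replicate 2 of granulocytes), 0.00558 (TNF replicate 3 of promyelocytes) and 0.0661 (vehicle replicate 2 of promyelocytes). The cause was not tested. In promyelocytes, 2 to 4 rather than 4 of the pathway genes fell when 1 library was left out, with 2 without TNF replicate 1 or 2 or vehicle replicate 1. In granulocytes, where 25 pathway genes rose and 8 fell, the counts were 23 and 6 under DESeq2, the same when all 12 libraries shared a fit, and 22 and 6 under the replicate block. All genes called down in promyelocytes numbered 1081, and 653 without vehicle replicate 2 and 667 without TNF replicate 2. Same-numbered libraries did not deviate together (mean correlation -0.0845 in promyelocytes and -0.0486 in granulocytes), so the numbers were not taken as pairs. With the replicate block 4 genes rose and 2 fell in promyelocytes, 5 and 2 in granulocytes, and calls over all genes went from 1324 up and 1081 down to 1012 and 821 in promyelocytes and from 4135 and 4209 to 3837 and 3884 in granulocytes. Depth limits the vehicle levels of *TRAF1* and *BIRC3*, at 16 to 104 read pairs, and with them their fold changes.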
